A study of Mus musculus with 27 samples.

Results

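The loss of p107 was examined in fresh fetal liver by setting 2 arrays labelled p107 KO at 0 h (p107KO) against 3 wild-type arrays at 0 h (WT). The groups were taken from the sample titles, so the comparison uses 5 of the 27 arrays of the study and all 10916 genes tested on them. The study hybridized RNA of mouse fetal liver cells from embryonic day 14.5 to Affymetrix Mouse Genome 430 2.0 arrays, with the cells held for 0, 24 or 48 h in a culture medium rich in serum. Another 4 groups from separate arrays are used beside the main comparison: p107KO and WT cells after 24 h (2 arrays each), and, at 0 h, cells lacking both Rb1 and p107 (DKO, 2 arrays) and cells lacking Rb1 alone (Rb1KO, 5 arrays). All groups were otherwise untreated. Neither a strain nor the design of the altered alleles is given in the labels. They also do not tie arrays to embryos or litters, so a p-value here covers the spread among these arrays alone. How much of that spread is technical is not known. The 2 p107KO arrays differ in sex-linked signal, as given below, so they are not repeats of 1 RNA sample.

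p107 is the product of Rbl1 and belongs, with RB (Rb1) and p130 (Rbl2), to the pocket proteins. In resting cells p107 and p130 bind repressor E2F factors, mainly E2F4 and E2F5, and the MuvB core to form the DREAM complex, which holds down genes of DNA replication and mitosis until cyclin-dependent kinases phosphorylate the pocket proteins. The fetal liver at this stage is the main site of red cell formation, where RB is known for its role in the cell cycle exit of erythroblasts. Rbl1 is itself an E2F target, and its promoter carries E2F sites.

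A globin of red cells and a gene of hepatoblasts were bright in all 5 arrays. Embryonic beta globin Hbb-y had signals of 37107 and 44526 in the p107KO arrays, against 35068, 36373 and 44545 in the WT arrays, and Dlk1, a marker of hepatoblasts, had 21949 and 19593 in p107KO, against 18534, 18415 and 15709 in WT. The arrays were alike in scale, with trimmed means between 497 and 498 and Pearson correlations between any 2 of the 5 arrays of 0.971 to 0.985 over genes. p107KO replicate 1 stood apart from the other 4 arrays in sex-linked genes. The Y-linked Eif2s3y had a signal of 1075 in p107KO replicate 1 and 9.5 in p107KO replicate 2, against 0.7, 26.8 and 7.6 in the WT arrays. Xist, the RNA of the inactive X chromosome, ran the other way, with 88.7 and 5552 in p107KO and 4806, 5692 and 6455 in WT. The values of these genes split the p107KO arrays and are not read as a difference of genotype. At 24 h, Y-linked signal was present in 1 of the 2 p107KO arrays and in 0 of the 2 WT arrays. It was present in both DKO arrays of 0 h (Eif2s3y at 923 and 956) and in 1 of the 5 Rb1KO arrays of 0 h, so that the arrays of DKO against Rb1KO differ in sex nearly as they differ in p107.

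The promoter windows that bear on the comparison are shown first, as the 250 bases before the gene start in RefSeq (GRCm38.p6). Rbl1 is the altered gene, Chaf1b, which encodes a subunit of chromatin assembly factor, is the E2F list member with the smallest unadjusted p, Mcm5, a subunit of the replicative helicase, was chosen after its values and sequence were seen because its window holds several motifs, and Serinc3 is the gene of chromosome 2 with the largest difference after Rbl1. Capitals mark matches to common forms of the E2F site, searched on both strands. The searched forms were TTCCCGC, then with a changed centre TTGGCGC, and as the last form TTCGCGC. The windows are at chr2:157204535-157204784 for Rbl1 (minus strand), chr16:93883651-93883900 for Chaf1b (plus strand), chr8:75109259-75109508 for Mcm5 (plus strand) and chr2:163645144-163645393 for Serinc3 (minus strand).
Rbl1: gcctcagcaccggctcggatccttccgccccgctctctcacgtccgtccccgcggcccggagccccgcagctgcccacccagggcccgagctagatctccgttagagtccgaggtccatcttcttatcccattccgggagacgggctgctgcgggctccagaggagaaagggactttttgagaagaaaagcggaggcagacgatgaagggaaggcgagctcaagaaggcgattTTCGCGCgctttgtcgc
Chaf1b: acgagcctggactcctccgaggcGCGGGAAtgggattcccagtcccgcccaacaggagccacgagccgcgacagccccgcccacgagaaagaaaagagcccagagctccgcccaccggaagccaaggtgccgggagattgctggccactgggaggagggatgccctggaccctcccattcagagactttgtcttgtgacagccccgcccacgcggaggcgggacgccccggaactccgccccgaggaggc
Mcm5: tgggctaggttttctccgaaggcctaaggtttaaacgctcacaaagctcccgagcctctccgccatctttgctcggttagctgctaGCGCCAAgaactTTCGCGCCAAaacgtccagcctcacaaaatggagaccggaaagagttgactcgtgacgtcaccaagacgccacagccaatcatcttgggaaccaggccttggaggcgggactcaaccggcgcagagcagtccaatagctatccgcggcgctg
Serinc3: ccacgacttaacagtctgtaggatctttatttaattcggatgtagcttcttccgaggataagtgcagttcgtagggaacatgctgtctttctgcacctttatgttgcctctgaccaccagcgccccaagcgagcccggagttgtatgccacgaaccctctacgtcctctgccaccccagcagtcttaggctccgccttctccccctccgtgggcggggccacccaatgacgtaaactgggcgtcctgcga
The Rbl1 window holds 1 match near the gene start, Chaf1b 1, Mcm5 3 (of which 2 overlap) and Serinc3 0. Of all 32851 promoter windows, 6.69% hold at least 1 match. Of the 8922 tested genes with a window, 14.4% do, and of the 48 genes of the E2F list with a window, 39.6%. A match describes the letters in the window and not the binding of a factor.

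Rbl1 itself was the check of the labels. Its brightest probe set read 117 and 109 in the p107KO arrays, against 1571, 1541 and 1746 in the WT arrays. The p107KO mean was 113 with an SD of 6.01 (n = 2), against a WT mean of 1619 with an SD of 110 (n = 3). The groups are far apart, and both p107KO arrays lie close to each other. On the log2(signal + 32) scale, on which all differences are given, Rbl1 fell by 3.51 (SE 0.25, 95% interval -4.02 to -3.00, limma adjusted p = 1.23e-08). On the mean over its 4 probe sets, of which the dimmest read 42.2 and 29.6 in p107KO and 22.1, 18.5 and 33.1 in WT, the difference was -1.68 (limma adjusted p = 0.0086). On separate arrays the drop was -3.03 in p107KO against WT at 24 h (limma adjusted p = 1.28e-06) and -4.14 in DKO against Rb1KO at 0 h (limma adjusted p = 6.97e-11). The test of a change between 0 and 24 h gave 0.48 (SE 0.36, limma unadjusted p = 0.20), and the test between the Rb1-null and Rb1-intact livers -0.63 (SE 0.33, limma unadjusted p = 0.071).

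The other pocket protein genes did not pass the test. Rb1 had 6651 and 6351 in p107KO and 6144, 6579 and 7105 in WT, a difference of -0.02 (95% interval -0.48 to 0.44). Rbl2, which encodes p130, had 475 and 500 in p107KO and 464, 485 and 379 in WT, a difference of 0.14 (95% interval -0.50 to 0.78). For both genes the arrays of the groups overlap, and the intervals lie within a 2-fold change in either direction.

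**Figure D1:**
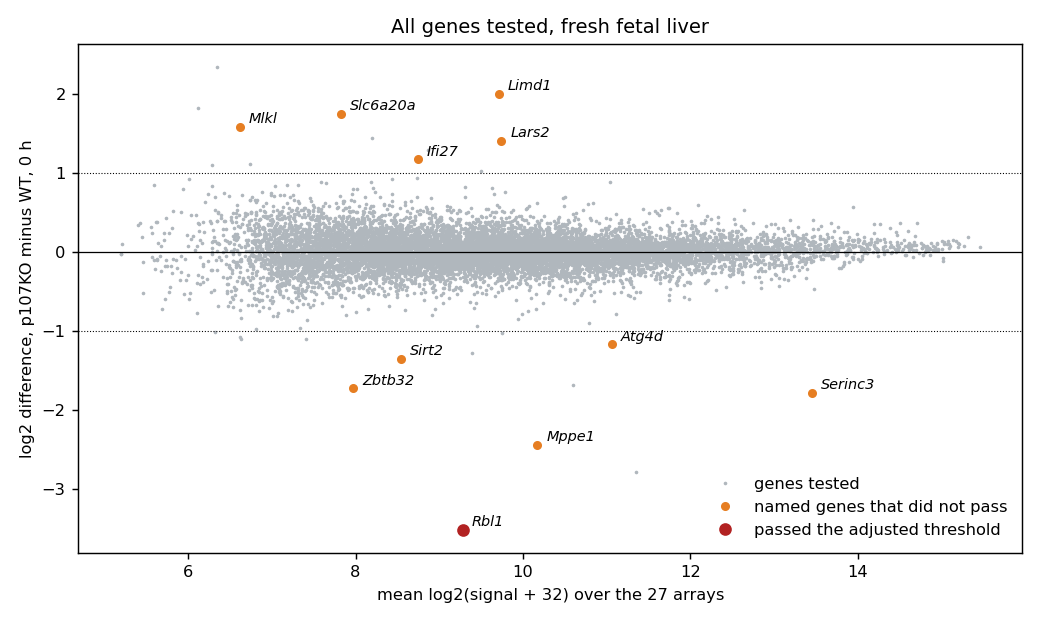
Each point is 1 of the 10916 genes tested. The x axis gives its mean log2(signal + 32) over the 5 arrays compared, although the axis label names 27 arrays. The y axis gives its log2 difference, p107KO minus WT at 0 h. Dotted lines mark log2 differences of 1 and -1. Rbl1 stands alone past the adjusted threshold at -3.51, and the unlabelled point near -2.8 is Xist.

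Beyond Rbl1, no gene passed the test in fresh liver. Of 10916 genes, 0 were higher and 1 was lower in p107KO at a limma adjusted p under 0.05 (0.00916% of all genes in either direction), and 75 genes, or 0.687%, had an unadjusted p under 0.05. The median log2 difference over all genes was 0.0084, and 96.6% of genes lay within 0.5 of 0. The 95% interval lay within a 2-fold change in either direction for 9063 genes, or 83%. The arrays of the groups did not overlap for 986 genes that were higher in both p107KO arrays (9.03%) and 862 that were lower (7.9%). A log2 difference of 1 or more was measured for 12 genes (0.11%) and of -1 or less for 14 (0.128%), and 20 of these 26 genes (11 higher and 9 lower) had arrays that did not overlap. Sex-linked genes are part of these counts, with the Y-linked Kdm5d among the 11 and Xist among the 14.

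The spread that the test uses comes from all 27 arrays, whose median residual SD per gene was 0.28 on the log2 scale, against 0.18 within the 5 arrays alone. When no gene differs and the spread fits the arrays, a share of about 0.05 has an unadjusted p under 0.05. The share here was 0.687%, so the p-values and intervals can be too large for these 5 arrays. A gene that did not pass is not shown to be unchanged. With the fit restricted to the 5 arrays, 4 genes passed in place of 1: Rbl1 and also Serinc3, Mppe1 and Limd1. These 3 genes and the others with the smallest unadjusted p did not pass in the fit over all arrays, where the limma adjusted p of every gene other than Rbl1 was 0.999855 or above. They are therefore described array by array.

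Serinc3, a multipass membrane protein of a family known in human cells for restricting retrovirus infection, had the brightest signals among them. It read 5666 and 4992 in p107KO, against 18008, 18110 and 18980 in WT. The groups do not overlap, and the WT arrays lie within a narrow band. The log2 difference was -1.78, with an SE of 0.58 in the fit over 27 arrays and of 0.107 over the 5 arrays (limma adjusted p = 0.000193 over the 5). All 6 probe sets of Serinc3 were lower in both p107KO arrays, with log2 differences of -4.32 to -1.56. The probe set with the steepest drop read 125 and 99.3 in p107KO against 2870, 2482 and 3198 in WT.

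The low Serinc3 signal recurred in every array without p107. Across the 9 such arrays, of all culture times and with or without Rb1, the signal lay between 4927 and 7434. In the 18 arrays with p107 it lay between 5946 and 68343, and 2 of these read as low as the p107-null arrays: Rb1KO replicate 5 at 0 h (5946) and Rb1KO replicate 4 at 24 h (6854). The lowest WT value at any time was 18008. The difference was -2.11 in p107KO against WT at 24 h (SE 0.63, limma adjusted p = 0.40) and -1.66 in DKO against Rb1KO at 0 h (SE 0.53, limma unadjusted p = 0.0049), neither of which passed the threshold.

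**Figure D2:**
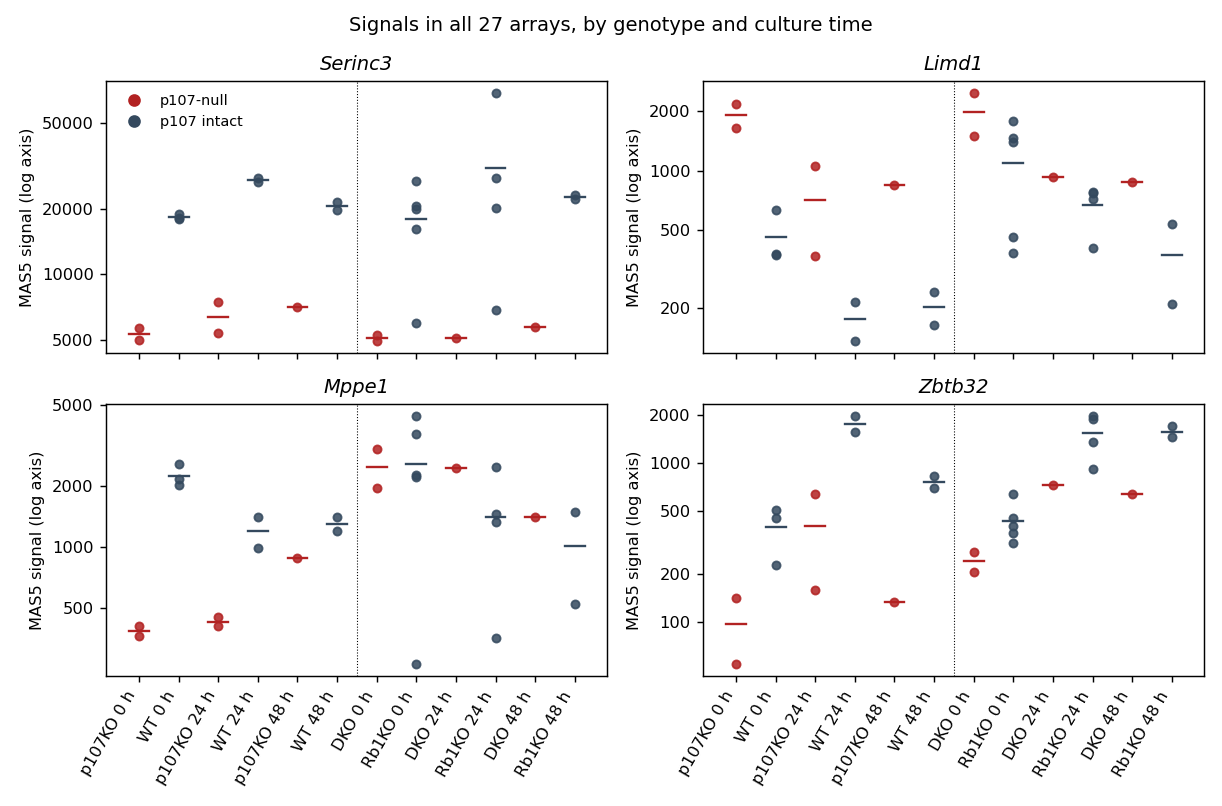
MAS5 signals (log axis) of Serinc3, Limd1, Mppe1 and Zbtb32 in all 27 arrays, by genotype and culture time, with points for arrays and lines for group means. Serinc3 lies between 4927 and 7434 in all 9 p107-null arrays, while Mppe1 is low in p107KO arrays at 0 and 24 h and in 1 Rb1KO array at each culture time, and not in DKO arrays.

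Serinc3 lies on chromosome 2, as Rbl1 does, and within 10 Mb of it. The genes of that interval were therefore set beside the rest. Of 174 tested genes within 10 Mb of the Rbl1 start, Rbl1 left out, 26 were lower in both p107KO arrays than in all WT arrays (14.9%) and 10 were higher (5.75%). Over the 10741 genes outside, 7.77% were lower and 9.09% higher, and over the 705 genes on the rest of chromosome 2, 9.5% were lower and 9.65% higher. Log2 differences of -0.5 or less were measured for 11 of the 174 genes (6.32%) and for 1.47% of the genes outside. The median difference of the interval was -0.05, and Rbl1 was the 1 gene of it to pass the test (2 with Serinc3 in the fit on the 5 arrays). The same genes were set beside the other comparisons, with no test between them. For p107KO against WT at 24 h, 16.7% of the 174 genes were lower and 20.7% higher without overlap, beside 14.5% and 19.6% of all genes, with a median of 0.01. For DKO against Rb1KO, 5.75% were lower and 10.9% higher, beside 5.78% and 6% of all genes, with a median of 0.04.

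Mybl2, which encodes B-Myb, the activator that replaces p107 and p130 on the MuvB core, is one of these neighbours. It read 982 and 1242 in p107KO, against 1696, 1632 and 1712 in WT, a difference of -0.59 (SE 0.27, limma unadjusted p = 0.038). On this brighter probe set of Mybl2 the arrays of the groups do not overlap. Its dimmer probe set read 429 and 403 in p107KO, against 425, 470 and 388 in WT, a difference of -0.03, and there the arrays overlap. At 24 h the Mybl2 difference was -0.29 and between DKO and Rb1KO -0.12, and neither passed the test. E2f1, the activator E2F gene on the same stretch, read 849 and 1087 in p107KO and 1163, 1257 and 1422 in WT, a difference of -0.40 (95% interval -0.97 to 0.17). On the dimmer probe sets of E2f1 (-0.15 and 0.06) the arrays overlap. Prex1, a Rac exchange factor chosen after its values were seen, read 462 and 490 in p107KO and 617, 936 and 869 in WT, a difference of -0.70 (SE 0.30).

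The 10 genes nearest to Rbl1, 5 on each side, did not pass the test. Their log2 differences ran from -0.24 for Soga1 to 0.38 for Blcap. Of the 10, 2 (Soga1 and Ndrg3) had arrays that did not overlap, both lower in p107KO. Over all genes, 7.9% were lower and 9.03% higher without overlap. On another probe set of Soga1 (0.41) and of Ndrg3 (-0.24) the arrays overlap. Samhd1, a nucleotide hydrolase, had 852 and 770 in p107KO and 779, 686 and 806 in WT. Rpn2, a subunit of the oligosaccharyltransferase, had 6363 and 5908 in p107KO and 6212, 5810 and 5484 in WT. For these 2 genes the arrays of the groups overlap.

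**Figure D3:**
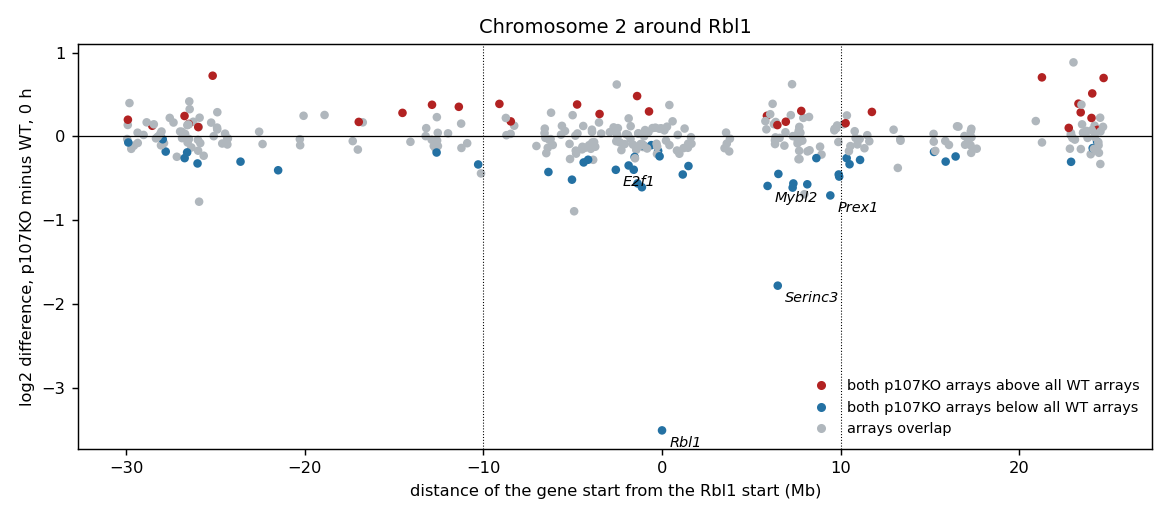
Genes of chromosome 2 by the distance of their start from the Rbl1 start in Mb (x axis) and their log2 difference, p107KO minus WT at 0 h (y axis). Colours mark genes whose arrays do not overlap, and dotted lines the 10 Mb on either side, where 26 genes other than Rbl1 were lower and 10 higher.

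Mppe1, on chromosome 18, encodes a phosphoesterase that trims the glycan of GPI anchors. It read 410 and 364 in p107KO, against 2556, 2023 and 2160 in WT, with no overlap. The log2 difference was -2.44, with an SE of 0.76 over the 27 arrays (limma unadjusted p = 0.0041) and of 0.149 over the 5 (limma adjusted p = 0.000193). At 24 h the p107KO arrays read 453 and 407, against 1409 and 993 in WT, again with no overlap. The DKO arrays at 0 h, which also lack p107, read 1945 and 3025, against 267 to 4412 with a median of 2257 in the Rb1KO arrays. Low signals were also read in 3 arrays with p107: Rb1KO replicate 3 at 0 h (267), Rb1KO replicate 2 at 24 h (357) and Rb1KO replicate 2 at 48 h (524). These 3 arrays have Y-linked signal, as p107KO replicate 1 at 0 h and both DKO arrays of 0 h do, while p107KO replicate 2 at 0 h has none. With Y-linked signal as a covariate the Mppe1 difference at 0 h was -1.64. The test of a different effect of p107 in Rb1-null and Rb1-intact liver gave 2.81 for Mppe1 (SE 1.03, limma unadjusted p = 0.012) and did not pass the adjusted threshold.

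Limd1, Lars2 and Slc6a20a were higher in p107KO and lie next to each other on chromosome 9. Limd1, a LIM domain scaffold protein, read 1648 and 2176 in p107KO and 635, 377 and 374 in WT, a difference of 2.00 (SE 0.54 over the 27 arrays, 0.237 over the 5, limma adjusted p = 0.040 in the fit on the 5). Lars2, the mitochondrial leucyl-tRNA synthetase, read 1288 and 1751 in p107KO and 617, 607 and 437 in WT, a difference of 1.40 (SE 0.47). Of the 2 dimmer probe sets of Lars2, 1 went the other way without overlap, with 112.5 and 57.2 in p107KO and 195, 113 and 145 in WT (-0.67), and on the other the arrays overlap. Slc6a20a, a proline transporter chosen after its values were seen, read 392 and 490 in p107KO and 148, 108 and 76.7 in WT, a difference of 1.75 (SE 0.82). On the brightest probe set of each of the 3 genes the groups do not overlap.

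Among the tested genes only Sacm1l lies between these 3 genes, and its difference was 0.14. The high level was not limited to p107-null liver. Limd1 read 2466 and 1503 in the DKO arrays, against 461, 382, 1393, 1459 and 1792 in the Rb1KO arrays of 0 h, so that 3 of the 5 Rb1KO arrays lay above every WT array of 0 h. Slc6a20a followed the same split, with 585 and 390 in DKO and 54.2, 51.5, 369, 462 and 810 in Rb1KO, in the same order of replicates. At 24 h the Limd1 difference between p107KO and WT was 1.69 (SE 0.59, limma adjusted p = 0.53) with no overlap of arrays.

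Zbtb32, a zinc finger repressor known from lymphocytes, was lower in all 3 comparisons. It read 141 and 55.0 in p107KO and 447, 504 and 228 in WT, a difference of -1.72 (SE 0.42, limma unadjusted p = 0.000477). At 24 h it read 639 and 159 in p107KO and 1947 and 1566 in WT, a difference of -2.31 (SE 0.46, limma adjusted p = 0.11). In DKO it read 205 and 277, against 315 to 639 with a median of 400 in Rb1KO, a difference of -0.74 (limma unadjusted p = 0.066). The arrays did not overlap in any of the 3, and none passed the adjusted threshold. A dimmer probe set of Zbtb32 went against it, with 72.3 and 71.8 in p107KO and 13.4, 56.2 and 49.3 in WT. Of the 79 named genes whose brightest probe set had no overlap at 0 h, 47 have other probe sets. For 14 of these another probe set had no overlap on the same side, and for 3 (Lars2, Rps6 and Zbtb32) on the opposite side.

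**Figure D4:**
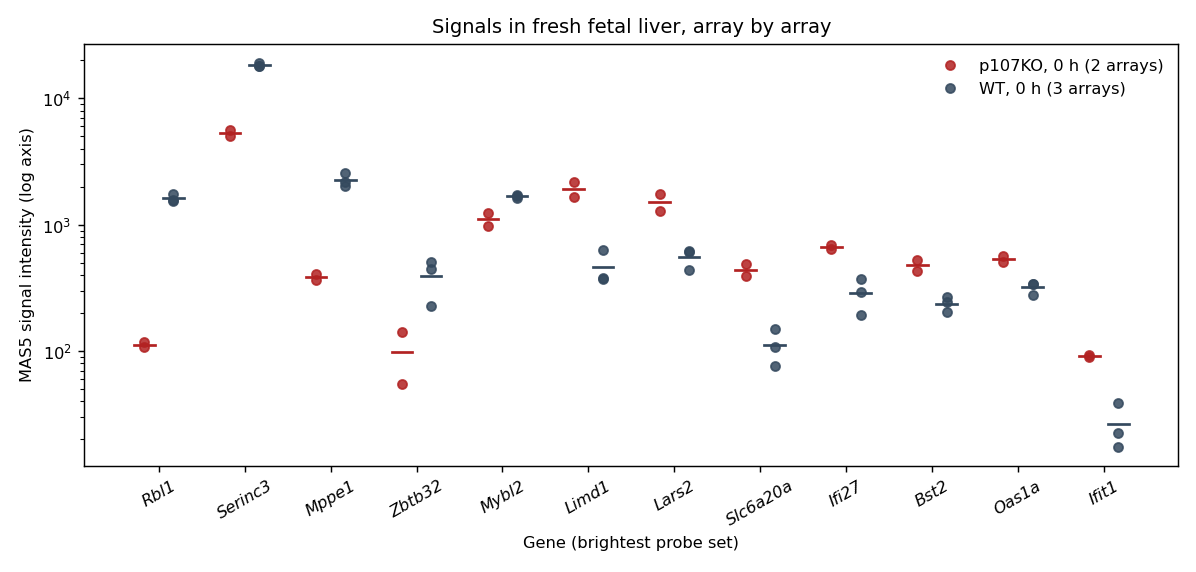
MAS5 signals (log axis) of 12 genes in the 2 p107KO arrays (left of each pair) and the 3 WT arrays (right) at 0 h, with points for arrays and lines for means. On the brightest probe set, which is shown for each gene, the arrays of the groups do not overlap. Rbl1, Serinc3, Mppe1, Zbtb32 and Mybl2 are lower in p107KO and the other genes higher.

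Of the 20 genes with a log2 difference of at least 1 in size and no overlap of arrays, 8 did not overlap on the same side at 24 h, and 4 did not in DKO against Rb1KO. For comparison, 19.6% of all genes were higher and 14.5% lower without overlap at 24 h, and 6% higher and 5.78% lower in DKO against Rb1KO. Rbl1, Serinc3 and Zbtb32 were on the same side in all 3. Some of the 20 rested on 1 array. Among them was the Y-linked Kdm5d, with 315 and 31.0 in p107KO and 10.6, 1.2 and 19.6 in WT, which is not read as a difference of genotype. Sirt2, a deacetylase, read 72.9 and 398 in p107KO and 469, 584 and 479 in WT, and Atg4d, a protease that processes autophagy proteins, read 621 and 2617 in p107KO and 2935, 2753 and 3084 in WT. Without p107KO replicate 2, Sirt2 passed at -2.36 (limma adjusted p = 0.020), so that 2 genes passed in all. Without p107KO replicate 1 the difference was -0.33 for Sirt2 and -0.16 for Atg4d.

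The remaining genes with the smallest unadjusted p varied in the size of the difference and in brightness. Among those higher in p107KO were Mlkl, the executor of necroptosis, with 171 and 145 in p107KO and 70.5, 18.7 and 17.0 in WT, and Ces1d, a carboxylesterase of hepatocytes, with 957 and 615 in p107KO and 532, 188 and 248 in WT. Fads1, a fatty acid desaturase, had the smallest difference of them, with 7374 and 6829 in p107KO and 5934, 5575 and 5445 in WT (0.33, SE 0.13). Rps27, a ribosomal protein, Zfp518a and Fam221a had differences of 1.44, 0.85 and 0.58. At 24 h the difference was -0.32 for Rps27, -0.29 for Ces1d and 0.59 for Mlkl. In DKO against Rb1KO it was -0.21, 0.01 and 1.15 for the same genes. Among those lower in p107KO, Tfpt, a subunit of the INO80 chromatin remodeller, Vti1a, a SNARE of the Golgi, and Gas7 had differences of -0.53, -0.48 and -1.01. Gas7 was dim, with 9.8 and 33.7 in p107KO and 78.2, 56.3 and 88.4 in WT. On the brightest probe set of each of these genes the arrays did not overlap at 0 h, and none passed the test. On the other probe sets of Ces1d, Fads1, Tfpt, Vti1a and Gas7 the arrays overlap. The Fads1 difference was -0.18 there.

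Genes that p107 is known to help repress did not pass the test in fresh liver. Of the 57 tested genes of the list of E2F targets in S phase entry and DNA replication, 0 passed the test, 5 were higher in both p107KO arrays than in all WT arrays (8.77%, beside 9.03% of all genes) and 2 were lower (3.51%, beside 7.9%). The list's median log2 difference was 0.012, beside 0.0084 over all genes, and the differences ran from -0.40 to 0.25. For all 57 genes the 95% interval lay within a 2-fold change in either direction, so that larger changes of these transcripts lie outside the intervals. The mean log2 level of the list was 11.71 and 11.89 in p107KO, and 11.83, 11.71 and 11.87 in WT.

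Mcm5, Rfc5, Rrm2, Tk1 and Uhrf1, named after their values were seen, were the 5 without overlap on the higher side, with differences of 0.16, 0.07, 0.08, 0.03 and 0.12. On the lower side were E2f1, given above with its dimmer probe sets that overlap, and Ung, a uracil DNA glycosylase of replicating cells. Ung read 821 and 742 in p107KO and 838, 946 and 1015 in WT. Chaf1b read 742 and 1340 in p107KO and 1306, 1209 and 1408 in WT, so that 1 of the p107KO arrays lay within the WT range (-0.38, SE 0.23). Over the genes whose promoter window holds one of the E2F motifs shown above, 1285 in number, the median difference was 0.013, with 10.3% higher and 7.55% lower without overlap. Over the 7637 genes without a match the median was 0.0059, with 8.92% higher and 8.04% lower.

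Genes of mitosis are held down by DREAM mainly through a different promoter element. Of 58 tested genes of the list of G2/M phase and mitosis, 0 passed, 8 were higher and 2 lower without overlap (13.8% and 3.45%, beside 9.03% and 7.9% of all genes), and the median difference was -0.02. Cdc20, which activates the anaphase-promoting complex, read 16846 and 16387 in p107KO and 15305, 13358 and 13048 in WT, a difference of 0.26 (SE 0.14). Gtse1, a microtubule regulator of G2 phase, read 650 and 646 in p107KO and 819, 800 and 741 in WT, a difference of -0.27 (SE 0.18). On the brightest probe set of both genes the arrays do not overlap, and neither passed the test. On the other probe sets of Cdc20 (0.14 and 0.19) the arrays overlap. Of the 49 genes of this list with a promoter window, 14.3% hold one of the E2F motifs.

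Cyclins, their kinases and inhibitors (17 tested, median -0.10) and targets of p53 (25 tested, median -0.03, 0 without overlap in either direction) had 0 genes past the test as well. Ccnd2, a D-type cyclin, read 1218 and 1064 in p107KO and 1277, 1457 and 1452 in WT (-0.28, SE 0.23). Cdkn1a, the p53 target that encodes the inhibitor p21, read 202 and 149 in p107KO and 198, 205 and 206 in WT. Of the 21 genes of the pocket protein and DREAM list, Rbl1 was the 1 that passed. Tfdp1, the dimer partner of E2F factors, was the 1 gene of it above all WT arrays, with 6669 and 6441 in p107KO and 5801, 6042 and 5860 in WT (0.15, SE 0.15). That gene made up 4.76% of the list, beside 9.03% of all genes. Below all WT arrays lay 3 genes of the list, Rbl1 among them (14.3%, beside 7.9% of all genes).

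**Figure D5:**
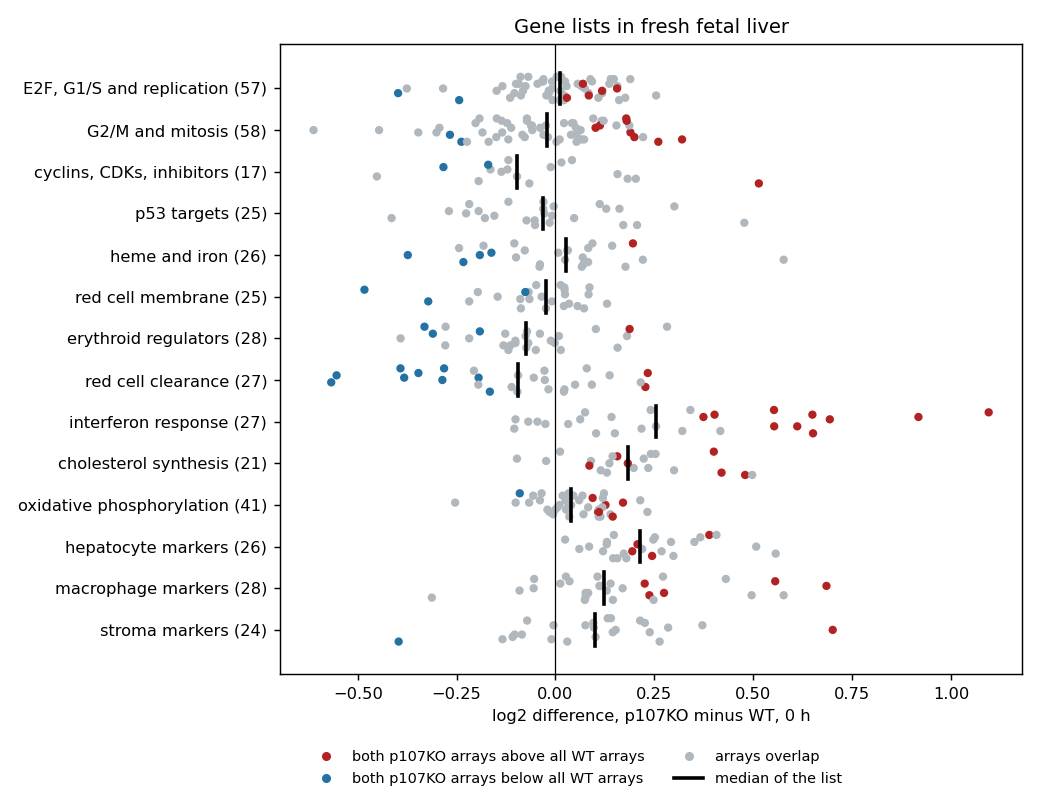
Each point is a tested gene of the list named at the left (number of genes in brackets), placed by its log2 difference, p107KO minus WT at 0 h, with black bars for the medians. The median is 0.01 for E2F targets and 0.25 for interferon response genes, where 10 of 27 genes lie above all WT arrays and 0 below.

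Interferon response genes had the highest list median, Y-linked genes aside. Of 27 tested genes, 0 passed the test, 10 were higher in both p107KO arrays than in all WT arrays (37% of the list, beside 9.03% of all genes) and 0 were lower, with a median difference of 0.25. Ifit1, which binds foreign RNA, read 89.3 and 93.1 in p107KO and 39.0, 17.6 and 22.4 in WT (1.10, SE 0.40). Bst2, known as tetherin, read 528 and 429 in p107KO and 204, 267 and 243 in WT (0.92, SE 0.41). Oas1a, of the oligoadenylate synthetase family, read 567 and 509 in p107KO and 343, 279 and 342 in WT (0.69, SE 0.29). The mean log2 level of the list was 8.40 and 8.33 in p107KO, against 8.08, 8.06 and 8.02 in WT. After 24 h of culture the level was 10.35 and 10.89 in p107KO and 9.69 and 10.55 in WT.

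The same list was set beside the other comparisons. In DKO against Rb1KO, 10 of the 27 genes were higher without overlap (37%, beside 6% of all genes) and 0 lower, with a median of 0.47. In p107KO against WT at 24 h 8 were higher (29.6%, beside 19.6% of all genes) and 0 lower, with a median of 0.52. In both, 0 genes passed the test. Of the 10 genes higher at 0 h, 7 were also among the 10 of DKO against Rb1KO, and 2 among the 8 of 24 h. The mean log2 level of the list was 8.60 and 8.39 in DKO, against 7.84 to 8.33 in the Rb1KO arrays. Ifi27, an interferon-induced gene outside the list, read 696 and 637 in p107KO and 294, 372 and 193 in WT (1.17, SE 0.32, limma unadjusted p = 0.0015). In DKO it read 947 and 760, against 162 to 495 in Rb1KO, a difference of 1.43 (SE 0.30, limma adjusted p = 0.38). At 24 h it read 4593 and 3725 in p107KO and 2797 and 3929 in WT, and the arrays overlap.

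Genes of red cell clearance, the ubiquitin and autophagy factors that strip maturing red cells of their contents, had more members on the lower side. Of 27 tested, 0 passed, 9 were lower and 2 higher without overlap (33.3% and 7.41%, beside 7.9% and 9.03% of all genes), and the median was -0.09. Ube2o, a ubiquitin ligase of reticulocytes, read 2665 and 3464 in p107KO and 4332, 5004 and 4253 in WT (-0.57, SE 0.24). Ypel4 read 3045 and 3863 in p107KO and 4431, 4600 and 4415 in WT (-0.38, SE 0.21). At 24 h 14 of the 27 were lower without overlap and 0 higher, with 6 genes shared with the 9 of 0 h, and in DKO against Rb1KO 10 were lower and 1 higher, with 3 shared. The background shares of lower genes were 14.5% and 5.78% in these comparisons. Map1lc3a, which encodes an LC3 protein of autophagosomes and lies within 10 Mb of Rbl1, read 1360 and 1503 in p107KO and 1687, 2193 and 1648 in WT.

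Erythroid regulators (28 tested, 0 passed, 1 higher and 3 lower without overlap, median -0.07), red cell membrane genes (25, 0 passed, 0 higher and 3 lower, median -0.02), heme and iron genes (26, 0 passed, 1 higher and 4 lower, median 0.03) and globins (5, 0 passed, 0 without overlap, median 0.15) had no gene past the test. The lower genes made up 10.7% of the erythroid, 12% of the membrane and 15.4% of the heme and iron list, beside 7.9% of all genes. The higher genes made up 3.57%, 0% and 3.85%, beside 9.03% of all genes. Sptb, the beta spectrin of the membrane skeleton, read 3264 and 5205 in p107KO and 5527, 5724 and 6087 in WT (-0.48, SE 0.24). Bcl2l1, the survival gene of late erythroblasts, read 2774 and 2989 in p107KO and 3462, 3810 and 3472 in WT (-0.31, SE 0.20). Gfi1b, an erythroid repressor, read 1972 and 3607 in p107KO and 3553, 3392 and 3589 in WT, so that it was low in replicate 1 alone.

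Markers of the other cells of the liver give the makeup of the samples. In bulk samples fewer cells of a type and less RNA per cell cannot be told apart. All 26 tested hepatocyte markers had a positive difference (median 0.21), 4 of them without overlap (15.4%, beside 9.03% of all genes), and their summed signal was 394933 and 366651 in p107KO, against 359802, 298822 and 335292 in WT. Apob, an apolipoprotein of hepatocytes, read 6366 and 2849 in p107KO and 4550, 2241 and 2355 in WT, so the arrays overlap. Macrophage markers (28 tested, median 0.12, 5 or 17.9% higher and 0 lower without overlap) summed to 78747 and 68289 in p107KO and 67615, 66246 and 65604 in WT. The macrophage receptor Timd4 read 803 and 450 in p107KO and 440, 297 and 363 in WT (0.69, SE 0.50). At 24 h the median was 0.81 for the hepatocyte and 0.13 for the macrophage markers, beside 0.52 for the interferon genes. The p107KO arrays of 24 h were unlike in the hepatocyte markers. Their mean log2 level was 8.81 in replicate 1 and 7.74 in replicate 2, against 7.41 and 7.49 in WT. In DKO against Rb1KO the median was -0.01 for the hepatocyte and 0.02 for the macrophage markers, beside 0.47 for the interferon genes. The part of these cell types in the interferon and red cell values was not tested.

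The other marker lists held 0 genes past the test. Granulocyte markers (19 tested, median 0.06), mast cell and basophil markers (10, median -0.0029), megakaryocyte markers (23, median -0.06), stem and progenitor cell genes (23, median 0.03), lymphoid markers (6 of 26 on the array were bright enough to be tested, median 0.14), endothelial markers (25, median 0.04) and stroma markers (24, median 0.10) each had at most 3 genes without overlap on either side. The largest shares were 16.7% higher for lymphoid and 5.26% lower for granulocyte markers, beside 9.03% and 7.9% of all genes. Pdgfra, a receptor of stromal cells, read 888 and 753 in p107KO and 557, 493 and 430 in WT (0.70, SE 0.50). Imprinted growth genes (17 tested, median 0.16) had 4 genes higher (23.5%, beside 9.03% of all genes) and 0 lower without overlap, with Phlda2 at 427 and 350 in p107KO and 255, 275 and 101 in WT.

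Metabolic lists held 0 genes past the test. Of 21 cholesterol synthesis genes, 6 were higher (28.6%, beside 9.03% of all genes) and 0 lower without overlap, and the median was 0.18. Cyp51, the lanosterol demethylase, read 3110 and 2304 in p107KO and 2091, 1734 and 1925 in WT (0.48, SE 0.20), and Fdft1, squalene synthase, 5793 and 5047 in p107KO and 4696, 3322 and 4380 in WT (0.40, SE 0.24). At 24 h the list's median was 0.00076 and in DKO against Rb1KO 0.14. Oxidative phosphorylation genes (41 tested) had a median of 0.04, with 6 higher (14.6%) and 1 lower (2.44%) without overlap. Ribosomal protein genes (25 tested) had a median of 0.06, with 2 higher (8%) and 0 lower. Heat shock genes (16, median 0.03, 0 without overlap) and immediate early genes (19, median 0.08, 1 or 5.26% on each side) completed the lists. Of all genes, 9.03% were higher and 7.9% lower without overlap. Fos, an immediate early transcription factor, read 295 and 213 in p107KO and 136, 119 and 213 in WT (0.62, SE 0.30).

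After 24 h of culture, 3 of 10916 genes passed between p107KO and WT (0.0275%), 1 lower (0.00916%) and 2 higher (0.0183%), and 794 (7.27%) had an unadjusted p under 0.05. Rbl1 was lower, and Dis3l, a ribonuclease of the cytoplasmic exosome, and Dennd6b, an activator of Rab proteins, were higher by 1.80 and 1.68 (limma adjusted p = 0.033 for each). At 0 h neither passed the test. Dis3l read 325 and 301 in p107KO and 339, 250 and 327 in WT (0.04, SE 0.29), and Dennd6b 196 and 211 in p107KO and 290, 303 and 200 in WT (-0.31, SE 0.26). The test of a change in the p107KO difference between 0 and 24 h called 0 genes (317, or 2.9%, at an unadjusted p under 0.05, smallest limma adjusted p 0.39, for Dennd6b at 1.99). The count at 24 h was 55 without p107KO replicate 2 of 24 h, 5 without either WT array of 24 h, 17 with the replicate number as a block and 0 on the mean over probe sets.

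In liver that also lacks Rb1, DKO against Rb1KO at 0 h, 1 of 10916 genes passed, again Rbl1 (0.00916%), and 405 genes (3.71%) had an unadjusted p under 0.05. The test of whether the effect of p107 differs between Rb1-null and Rb1-intact liver called 0 genes (172, or 1.58%, at an unadjusted p under 0.05, smallest limma adjusted p 0.99971), and 1 without DKO replicate 1. The count for DKO against Rb1KO was 2 without DKO replicate 1 and 30 with array weights. The E2F list had a median of 0.02 and the mitosis list of -0.02 in DKO against Rb1KO, with 0 genes past the test in either list. Without overlap, 2 genes of the E2F list were higher and 5 lower (8.77%), and 2 of the mitosis list were higher and 12 lower (20.7%), beside 5.78% of all genes on the lower side. Both DKO arrays and 1 of the 5 Rb1KO arrays have Y-linked signal, and 5 of the 9 tested genes of the list of X-linked genes (Xist and genes that escape X inactivation) were lower in DKO without overlap. With Y-linked signal as a covariate the count was again 1.

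The livers lacking p107 were also compared directly with those lacking Rb1, at 0 h. There 38 of 10916 genes passed (0.348%), 4 higher (0.0366%) and 34 lower (0.311%) in p107KO, and 699 (6.4%) had an unadjusted p under 0.05. The genes given here were chosen after their values were seen. Rb1 averaged 6501 in p107KO and 2109 in Rb1KO (1.64, limma adjusted p = 0.000163), which checks the Rb1KO labels. Ccne2, the E2F target that encodes cyclin E2, averaged 2003 in p107KO, against 5236 in Rb1KO (-1.30, limma adjusted p = 0.014), beside 1992 in WT. Zfp367, a zinc finger gene, averaged 2792 in p107KO, against 6668 in Rb1KO (-1.24, limma adjusted p = 0.00052), beside 2541 in WT. Cdkn1a averaged 175 in p107KO, against 569 in Rb1KO (-1.49, limma adjusted p = 0.0024), beside 203 in WT. Rsad2, an interferon-induced gene, averaged 6994 in p107KO, against 2647 in Rb1KO (1.47, limma adjusted p = 0.0078), beside 5283 in WT. The count of 38 was 12 without p107KO replicate 1, 11 without p107KO replicate 2, 12 on the arrays of these groups alone and 96 with array weights.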

How the data were processed

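The authors deposited 1 signal intensity per probe set and array, on a linear scale, and the submitters' processing notes name the tools MAS5 and GCOS 1.4. MAS5 scales each array to a common trimmed mean, so a uniform change of all genes would not be seen. Precision is limited by the number of arrays. Among 45037 probe sets, 34945 have 1 gene symbol in the platform annotation, 932 several and 9160 none, and only the first were used. Each gene took its brightest probe set. Values were used as log2(signal + 32), and 10916 of the 18193 genes were tested after dropping the dimmest 40% by mean. limma 3.58.1 in R 4.3.3 fitted 1 mean per group over all 27 arrays (lmFit, then eBayes with trend), so that all groups share 1 estimate of the spread, with Benjamini-Hochberg adjustment over all genes tested and a threshold of 0.05. Tests are two-sided. The fit was tested on simulated data. Figures were drawn with matplotlib 3.10.9.

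The comparison, the gene lists and the tests were chosen with earlier results of these data known. Named are the pocket protein genes, the genes past the threshold, the 10 with the smallest unadjusted p in each direction, up to 4 genes of each list with the smallest unadjusted p (and any with an absolute log2 difference of 1 or more), and the 5 tested genes on each side of Rbl1. Genes outside this rule are said to be chosen after their values were seen. Gene symbols, order on the chromosome and promoter windows come from RefSeq (GRCm38.p6). The annotation held no window for Limd1 and Ifi27. Alternatives covered the pseudocount, the filter, quantile normalization, the choice of probe set, array weights, the arrays in the fit, the replicate number as a block, Y-linked signal as a covariate and each array left out in turn.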

Additional observations from a re-analysis of the deposited data

Results flagged for a closer look

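Among 18 genes, picked after their values were seen and covering those whose Rb1KO signals the report gives, tested for a stray array in the 5 Rb1KO arrays of 0 h, the only group of the 0 h comparisons with 4 or more arrays, 1 array stood apart. Mppe1 read 267 in Rb1KO replicate 3, while the other 4 Rb1KO arrays lay between 2212 and 4412. The gap to the nearest array was 0.747 of the whole range. Chance flags about 1 in 20 groups. The low value is near the Mppe1 signals in the p107KO arrays of 0 h (410 and 364). It was not alone among arrays with p107: Mppe1 read 357 in Rb1KO replicate 2 at 24 h and 524 in Rb1KO replicate 2 at 48 h. All 3 arrays have Y-linked signal, whose part in the value was not tested in Rb1KO.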

How the results depend on the processing

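With 2 p107KO and 3 WT arrays, the median 95% interval of a gene reached 0.52 on either side on the log2 scale. For such a gene a smaller difference cannot be told from 0. These intervals are not adjusted for the number of genes, and the adjusted threshold asks for more. Differences of -2.44 (Mppe1) and 2.00 (Limd1) did not pass it in the fit over all arrays. Rbl1 passed under every alternative run, and leaving out each of the 5 arrays in turn gave -3.55 to -3.46. Over 28 named genes with an unadjusted p under 0.05, 462 of 468 values kept direction and side of the threshold, 5 newly passed and 1 reversed: Sys1, at -0.61, was 0.0065 on the mean over its probe sets. The cause of the moved counts below was not tested.

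The count of 1 gene for p107KO against WT at 0 h was 4 on the 5 arrays alone and 1 to 2 with each array left out. Within 10 Mb of Rbl1 it was 2 on those arrays and otherwise 1, the block aside. At 24 h, the count of 3 was 10 with a pseudocount of 1, 1 without the filter, 1 with the lowest 60% left out, 0 on the mean over probe sets, 1 with array weights and 3 to 55 with each array left out. For DKO against Rb1KO, the count of 1 was 30 with array weights, 2 without 4 arrays of low correlation and 1 to 2 with each array left out. For p107KO against Rb1KO, the count of 38 was 59 after quantile normalization, 96 with array weights, 12 on the groups compared alone, 67 without the 4 arrays and 11 to 46 with each array left out. The test of the p107 effect between Rb1-null and Rb1-intact liver gave 0 to 1 genes with each array left out, and the change from 0 to 24 h gave 0.

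The labels do not say whether the replicate numbers pair the samples. At 0 h, deviations of same-numbered p107KO and WT arrays from their group means correlated at 0.10 and -0.15. With 2 p107KO arrays these 2 values are not independent, so they cannot decide whether the samples are paired. With the replicate number as a block, the counts were 2 at 0 h, with Serinc3 added (-1.81, limma adjusted p = 0.038), 17 at 24 h, 2 for DKO against Rb1KO and 2 within 10 Mb of Rbl1.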
